A study of Mus musculus with 8 samples.

Results

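The interferon signalling and antigen presentation genes described here are 9 genes, taken from the 51912 genes of the count table by gene symbol. They are the signalling genes Stat2 and Irf9, the effector genes Ifit2, Oasl2 and Gbp2, and the class I antigen presentation genes Tap1, H2-D1, H2-K1 and B2m. RNA was sequenced from mesenchymal cells sorted from mouse lung at embryonic day 16, though the labels also give the tissue as bulk lung. The Sin3a CKO embryos (conditional knockout, 4 libraries) were Tbx4rtta; tetocre; Sin3a F/F, and the Control embryos (4 libraries) were Tbx4rtta; tetocre; Sin3a F/+. Both groups therefore carried the Tbx4-driven rtTA and the tetO-Cre transgene, and pregnant females of both were fed doxycycline from embryonic day 12. Controls also carried 1 floxed allele, so by genotype the design sets deletion of both alleles against deletion of 1. Sin3a encodes the scaffold on which histone deacetylases act as corepressors. The libraries are labelled as biological replicates, and the sources used here do not say whether embryos shared a litter.

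Interferons bind receptors at the cell surface, and the attached Janus kinases phosphorylate STAT proteins. For type I interferons, a complex that contains STAT2 and IRF9 binds the interferon-stimulated response element (ISRE) in the promoters of effector genes. Many effectors restrict viruses, and class I antigen presentation genes, which show peptides from inside the cell to T cells, are also induced by interferons. STAT2 and IRF9 are themselves induced in many cell types, and a low level of all these genes is kept up without infection.

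In Sin3a CKO mesenchyme Stat2 rose while all 3 effector genes fell. Of the 9 genes, all of which passed the filter on low counts, 2 rose (Stat2 and H2-D1), 4 fell (Ifit2, Oasl2, Gbp2 and Tap1) and 3 did not pass the test (Irf9, H2-K1 and B2m). Over all 20315 tested genes 33.4% were called in either direction, 17.3% as higher and 16.1% as lower, so a count of 6 among 9 chosen genes is a description of these genes. Ifit2, Oasl2 and Gbp2 fell by at least 2-fold, which 6.82% of tested genes did, and 0 members rose by at least 2-fold, which 2.61% did; that 0 held with DESeq2 and limma-voom as well. A call means an adjusted p under 0.05 in edgeR's quasi-likelihood test with Benjamini-Hochberg adjustment over all tested genes. Levels are counts per 1000000 counts of a TMM-scaled library (CPM), and a log2 fold change is Sin3a CKO over Control with its standard error (SE). The balance of calls over all genes was 3518 higher and 3274 lower, against 2790 higher and 4522 lower with upper-quartile scaling and 2233 higher and 3823 lower without the filter on low counts. The median log2 fold change of all tested genes was 0.04, and -0.06 with upper-quartile scaling.

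The libraries held 96098322 to 108493347 counts. Values of the 9 genes rest on 58 to 17250 counts per library. Sin3a itself had 56.6, 61.0, 53.2 and 61.0 CPM in Sin3a CKO libraries 1 to 4, against 53.7, 46.8, 46.2 and 58.7 CPM in Control libraries 1 to 4. It did not pass (adjusted p = 0.191), and counts over the whole gene do not check the deletion, because the sources used here do not give the deleted part. Mesenchyme markers such as Col1a1, Pdgfra and Tbx4 were abundant, and all 10 listed markers were tested. Their summed level was 12424 to 14043 CPM in Sin3a CKO and 17304 to 23739 CPM in Control libraries. That sum rests largely on collagen genes, Col3a1 alone averaging 6078 CPM in Sin3a CKO and 9035 CPM in Control libraries. Of the 10 markers 6 were called lower and 4 did not pass, beside 16.1% of all tested genes called lower. The summed level of 15 leukocyte markers was 344.2 to 585.8 CPM in Sin3a CKO libraries. Among Control libraries it was 721.1, 760.3 and 402.0 CPM in libraries 1 to 3 and 29.6 CPM in library 4, which stood apart. Epithelial markers summed to 56.5 to 1323 CPM in Sin3a CKO and 57.2 to 461.5 CPM in Control libraries, and 10 erythroid markers to 1097 to 4291 and 101.5 to 883.8 CPM. Of 9 erythroid markers tested 6 were called higher, beside 17.3% of all tested genes. Endothelial markers summed to 66.7 to 140.9 CPM in Sin3a CKO libraries, against 157.6, 151.8, 247.1 and 50.4 CPM in Control libraries 1 to 4. Control 4 was thus below every knockout and the other controls above every knockout. Of the 10 markers 1 was called lower, but all 10 were called lower under a block for identifier prefix. The part of epithelial, erythroid and endothelial cells in the results was not tested. In bulk RNA, fewer cells of a type and less RNA per cell cannot be told apart. The labels' identifiers have 3 prefixes of unstated meaning: s686 for Sin3a CKO 4, Control 1 and Control 2, s1244 for Sin3a CKO 1 to 3 and Control 3, and s722 for Control 4. A comparison inside a prefix has 1 library on a side and no test. Sex, read from Xist, also differed inside s686: 0.0105 CPM in Sin3a CKO 4, against 174.2 and 183.9 CPM in Control 1 and Control 2. Differences inside s686 therefore cannot be told apart from sex. Inside s1244 Xist was at 139.2, 0.133 and 117.1 CPM in Sin3a CKO 1 to 3 and 0.185 CPM in Control 3.

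Promoter sequences were searched for the core letters of the element that the STAT and IRF9 complex recognises. RefSeq windows on GRCm38.p6 from 250 bases before to 50 bases after a start site were available for all 9 genes. The ISRE core was searched on both strands as TTTC, any 2 bases and TTTC, which 3.44% of 32851 promoter windows hold. Stat2, Gbp2 and B2m each hold 1 match, 222, 59 and 139 bases before the start site. These 3 promoters are shown because they carry the same core yet belong to a gene that rose, a gene that fell and a gene that did not pass. Capitals mark the core, and each sequence is printed along the plus strand of its chromosome. In B2m the core lies on the opposite strand, so its capitals show the reverse complement.
Stat2, chr10:128270248-128270347: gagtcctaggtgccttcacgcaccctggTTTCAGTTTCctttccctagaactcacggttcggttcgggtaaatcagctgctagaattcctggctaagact
Gbp2, chr3:142620559-142620658: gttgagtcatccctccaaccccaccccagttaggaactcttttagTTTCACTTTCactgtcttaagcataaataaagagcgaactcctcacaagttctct
B2m, chr2:122147503-122147602: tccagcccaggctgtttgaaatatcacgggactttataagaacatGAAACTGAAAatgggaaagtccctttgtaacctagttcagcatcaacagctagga

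No window of Irf9, Ifit2, Oasl2 or Tap1 holds these letters, which says nothing of sites outside the windows. The class I heavy chain genes H2-D1 and H2-K1 hold a form that is 1 letter shorter (TTTC, any 2 bases and TTC), found on either strand in 7.52% of windows. In Stat2 a match to it overlaps the core. Upstream of it both heavy chain genes hold GGGGA followed by TTCCC, a κB-like sequence of class I promoters, found in 0.107% of windows. This pair is shown because the promoters are similar although H2-D1 rose and H2-K1 did not pass. Capitals mark the κB-like sequence and then the shorter ISRE form.
H2-D1, chr17:35262898-35262997, plus strand: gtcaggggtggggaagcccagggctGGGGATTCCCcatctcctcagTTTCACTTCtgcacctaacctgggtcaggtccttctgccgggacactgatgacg
H2-K1, chr17:34000384-34000483, minus strand: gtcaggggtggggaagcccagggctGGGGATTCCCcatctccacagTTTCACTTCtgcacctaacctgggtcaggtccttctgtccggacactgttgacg
These stretches are identical at 96 of 100 bases, with both motifs the same. Over the whole windows 211 of 239 aligned bases were identical (88.28%), and 222 of 253 (87.75%) for the other H2-K1 start site. A match in a promoter is a description and does not show that a factor binds there.

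Stat2 (ENSMUSG00000040033, mm10 chromosome 10, 128270559 to 128292849, plus strand) encodes the STAT protein specific to type I and type III interferon signalling. It had 42.3, 43.8, 40.3 and 48.8 CPM in Sin3a CKO libraries 1 to 4, against 28.5, 28.1, 29.8 and 32.6 CPM in Control libraries 1 to 4. All knockout libraries lay above all controls, which held for either direction in 36.1% of tested genes. Stat2 rose by 0.56 ± 0.08 on the log2 scale (SE; adjusted p = 0.000859 in edgeR). Its rise was 0.79 inside s686 and 0.50 inside s1244, and 0.55 without Control 4.

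Irf9 (ENSMUSG00000002325, chromosome 14, 55603571 to 55610030, plus strand) encodes the DNA-binding partner of STAT2. Its level was 9.03, 8.71, 8.90 and 9.36 CPM in Sin3a CKO libraries, against 7.42, 7.80, 8.33 and 6.95 CPM in Control libraries. The groups did not overlap, but the log2 fold change of 0.24 ± 0.11 did not pass (edgeR adjusted p = 0.139). It was 0.30 inside s686 and 0.09 inside s1244. Irf9 exons share 123 of 5386 bases with Rnf31 on the same strand.

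Ifit2 (ENSMUSG00000045932, chromosome 19, 34550694 to 34576419, plus strand) encodes an antiviral tetratricopeptide protein that binds RNA. It had 16.8, 14.7, 10.95 and 10.4 CPM in Sin3a CKO libraries, against 28.1, 31.2, 28.1 and 30.7 CPM in Control libraries. Controls were close together, Control 4 among them, and every knockout was lower. The log2 fold change was -1.16 ± 0.15 (edgeR adjusted p = 0.000402), with -1.51 inside s686 and -0.99 inside s1244.

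Oasl2 (ENSMUSG00000029561, chromosome 5, 114896936 to 114912234, plus strand) encodes a 2'-5'-oligoadenylate synthetase family member. Its level was 0.761, 0.975, 1.16 and 1.08 CPM in Sin3a CKO libraries, against 2.23, 1.82, 2.72 and 1.51 CPM in Control libraries. The groups did not overlap, and Oasl2 fell by 1.06 ± 0.26 on the log2 scale (edgeR adjusted p = 0.0103). The change was -0.91 inside s686 and -1.50 inside s1244.

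Gbp2 (ENSMUSG00000028270, chromosome 3, 142620602 to 142638008, plus strand) encodes an interferon-inducible guanylate-binding protein that acts on vacuoles of intracellular pathogens. It had 1.28, 1.29, 1.12 and 0.608 CPM in Sin3a CKO libraries, against 2.10, 2.26, 3.41 and 1.90 CPM in Control libraries. Sin3a CKO 4 was the lowest library and Control 3 the highest, without overlap of the groups. The log2 fold change was -1.17 ± 0.30 (edgeR adjusted p = 0.0140), with -1.84 inside s686 and -1.47 inside s1244. The longest Gbp2 transcript matches Gbp2b at 83.8% identity over 1709 of 2516 bases, so its count is uncertain where the counting split reads between them.

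The effectors and Stat2 can also be set against each other inside a library, where scaling cancels. For every 100 Stat2 counts there were 39.7, 33.6, 27.2 and 21.3 Ifit2 counts in Sin3a CKO libraries 1 to 4, against 98.5, 110.8, 94.4 and 94.2 in Control libraries. Tap1 had 11.9, 12.5, 13.7 and 9.88 counts per 100 Stat2 counts in Sin3a CKO libraries, against 31.4, 33.6, 27.5 and 21.3 in Control libraries. Oasl2 had 1.80 to 2.87 and Gbp2 1.25 to 3.02 in Sin3a CKO libraries, against 4.62 to 9.13 and 5.83 to 11.5 in Control libraries. All 4 ratios were lower in every knockout library than in every control. They restate the changes above as within-library ratios and add no test.

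**Figure D1:**
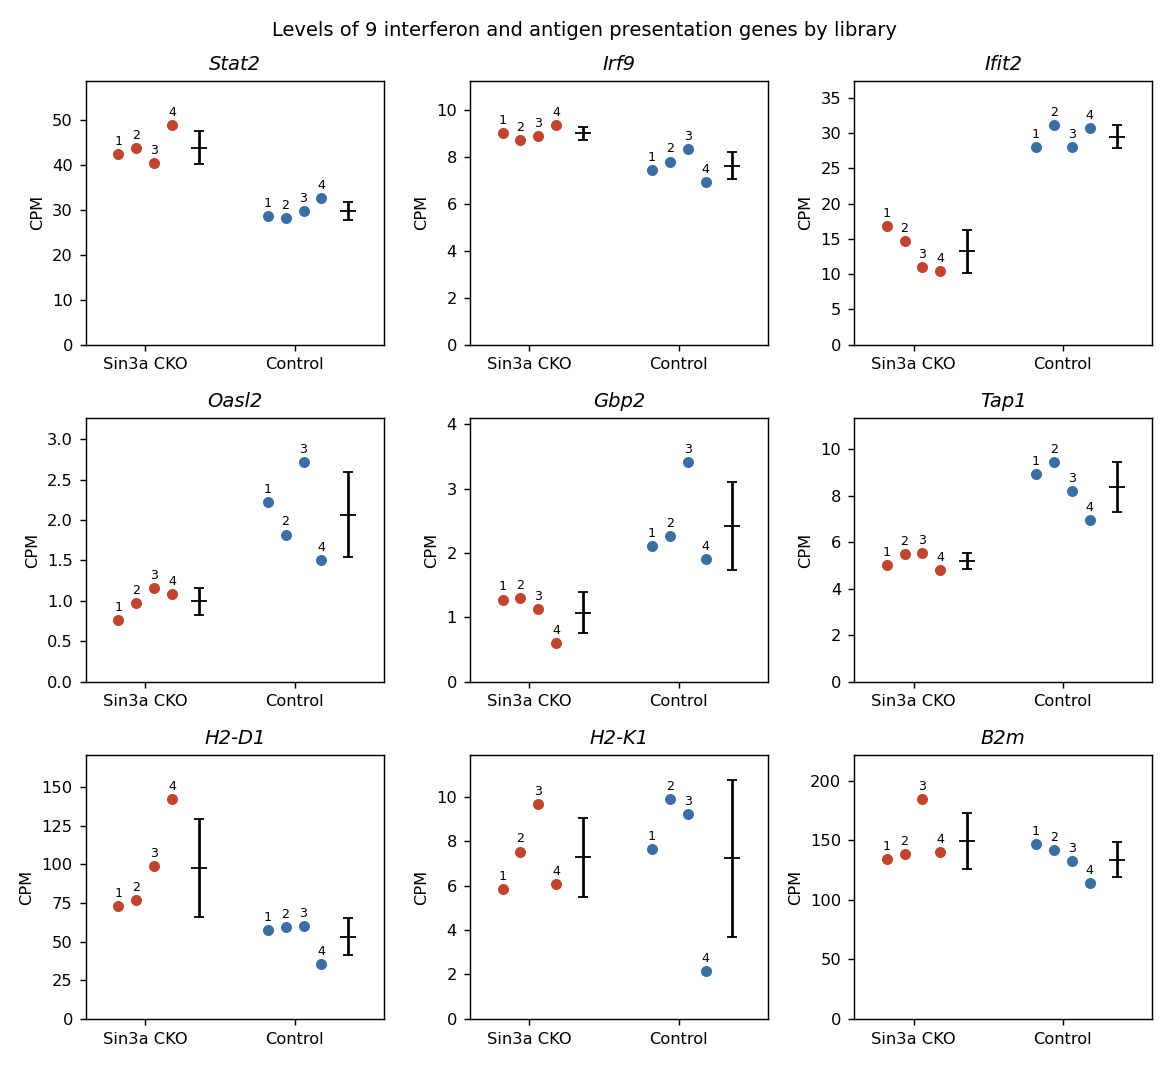
CPM of the 9 genes in each library, with Sin3a CKO libraries in red on the left, Control libraries in blue on the right, and the library number above each point; black marks give the mean and SD over 4 libraries. Stat2 lies between 40.3 and 48.8 CPM in knockouts, above every control, while Ifit2 lies between 10.4 and 16.8 CPM, below every control.

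Tap1 (ENSMUSG00000037321, chromosome 17, 34187553 to 34197225, plus strand) encodes a subunit of the transporter that carries peptides into the endoplasmic reticulum for loading on class I molecules. It had 5.02, 5.48, 5.52 and 4.82 CPM in Sin3a CKO libraries, against 8.94, 9.45, 8.19 and 6.95 CPM in Control libraries. Knockouts were close together and all below the controls. Tap1 fell by 0.69 ± 0.14 on the log2 scale (edgeR adjusted p = 0.00426), with -0.93 inside s686 and -0.62 inside s1244. Its exons share 212 of 5476 bases with Psmb9 on the opposite strand, and the sources used here do not state whether counting used strand.

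H2-D1 (ENSMUSG00000073411, chromosome 17, 35262730 to 35267499, plus strand) encodes a class I heavy chain. It had 72.8, 76.6, 98.7 and 142.1 CPM in Sin3a CKO libraries, against 57.5, 59.3, 60.2 and 35.5 CPM in Control libraries. The groups did not overlap, with Sin3a CKO 4 far above the other knockouts and Control 4 far below the other controls. H2-D1 rose by 0.88 ± 0.24 on the log2 scale (edgeR adjusted p = 0.0211). It was 0.60 and no longer called when Sin3a CKO 4 was left out (adjusted p = 0.0713), and likewise 0.82 when Sin3a CKO 3 was (adjusted p = 0.0678). Without the filter on low counts it was 0.77 (adjusted p = 0.189, the highest of 16 alternatives, the lowest being 0.000881). The difference was 1.28 inside s686 and 0.46 inside s1244.

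H2-K1 (ENSMUSG00000061232, chromosome 17, 33996017 to 34000347, minus strand) encodes the other classical class I heavy chain. Its level was 5.83, 7.54, 9.67 and 6.06 CPM in Sin3a CKO libraries, against 7.64, 9.89, 9.23 and 2.13 CPM in Control libraries. The groups overlapped, Control 4 being lowest of all libraries, and the log2 fold change of 0.01 ± 0.41 did not pass (edgeR adjusted p = 0.991). It was -0.53 inside s686 and -0.27 inside s1244. Control 4 was also the library with the lowest summed leukocyte markers, at 29.6 CPM. Without Control 4 the log2 fold change of H2-K1 was -0.35 ± 0.21 (adjusted p = 0.253), and with the leukocyte marker sum as a covariate it was -0.08 ± 0.22. With that covariate H2-D1 was at 0.77 ± 0.18 (adjusted p = 0.0114).

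Counts of the heavy chain genes are uncertain as separate values. These genes differ between mouse strains, the labels do not give the strain or H2 haplotype, and counts on the mm10 reference may depend on it. The longest H2-D1 transcript matches H2-K1 at 90.6% identity over 1404 of 2102 bases, and H2-Q and other class I genes are nearly as close. H2-D1 counts were 12.5, 10.2, 10.2 and 23.5 times H2-K1 counts in Sin3a CKO libraries 1 to 4, against 7.52, 6.00, 6.52 and 16.6 times in Control libraries. The highest ratio in each group was in library 4, and Control 4 lay above 3 of the 4 knockouts, so the ratio overlapped between groups.

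**Figure D2:**
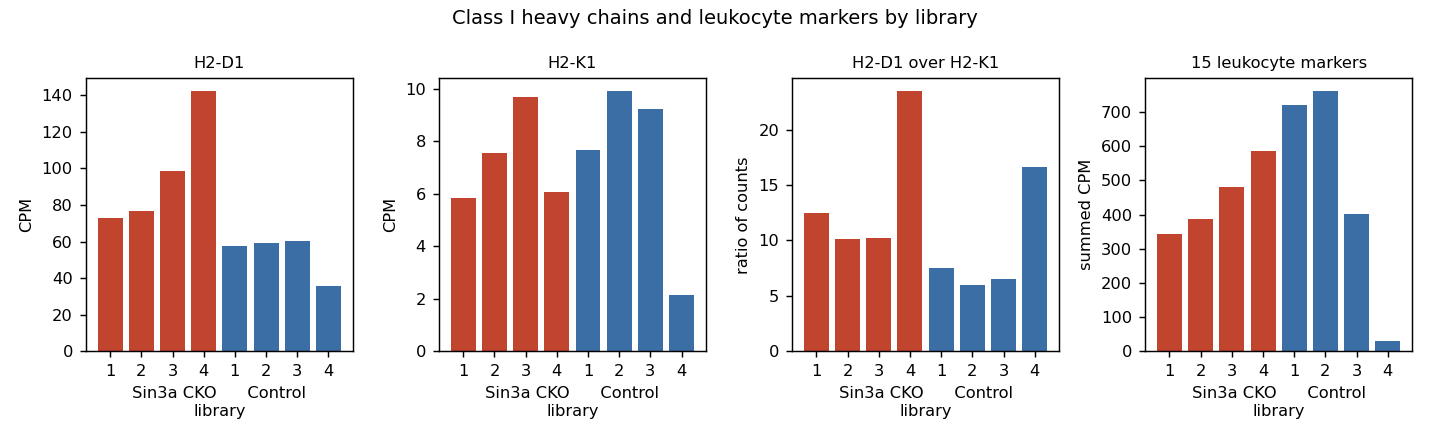
H2-D1 and H2-K1 in CPM, the ratio of their counts, and the summed CPM of 15 leukocyte markers, as 1 bar for each library with Sin3a CKO in red and Control in blue. H2-D1 is above 72 CPM in every knockout, and Control 4 has the least H2-K1 (2.13 CPM) and the lowest leukocyte sum (29.6 CPM).

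B2m (ENSMUSG00000060802, chromosome 2, 122147686 to 122153083, plus strand) encodes β2-microglobulin, the light chain shared by class I molecules. It had 134.6, 138.3, 184.5 and 139.8 CPM in Sin3a CKO libraries, against 146.8, 142.0, 132.5 and 114.1 CPM in Control libraries. The groups overlapped, with Sin3a CKO 3 alone above 150 CPM. The log2 fold change of 0.16 ± 0.12 did not pass (edgeR adjusted p = 0.363), and was -0.01 without Sin3a CKO 3. It was -0.05 inside s686 and 0.20 inside s1244.

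Scaled to exon length, the order of the 9 levels differed between groups at neighbouring places. B2m was highest, at 173.6 ± 27.4 CPM per kilobase in Sin3a CKO and 155.6 ± 16.8 CPM per kilobase in Control libraries (SD, n = 4 each). H2-D1 was next, at 37.8 ± 12.3 and 20.6 ± 4.59 CPM per kilobase. In Sin3a CKO libraries Stat2 followed at 7.39 ± 0.61 CPM per kilobase, above Ifit2 at 3.36 ± 0.78, whereas in Control libraries Ifit2 at 7.51 ± 0.42 was above Stat2 at 5.02 ± 0.34. H2-K1 was at 2.48 ± 0.60 and 2.46 ± 1.199 CPM per kilobase, and in Sin3a CKO libraries its range overlapped that of Ifit2. Irf9 at 1.67 ± 0.05 was above Tap1 at 0.95 ± 0.06 CPM per kilobase in Sin3a CKO libraries, and at 1.42 ± 0.11 was within the spread of Tap1 at 1.53 ± 0.20 in Control libraries. Gbp2, at 0.43 ± 0.13 and 0.96 ± 0.27 CPM per kilobase, and Oasl2, at 0.16 ± 0.03 and 0.32 ± 0.08, were lowest in both groups, Sin3a CKO given first for each gene. In Control libraries the ranges of H2-K1, Tap1, Irf9 and Gbp2 overlapped.

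Of 5 other STAT genes 1 rose and 4 fell, and the groups did not overlap for any of the 5. Over all tested genes 33.4% were called, 16.1% as lower, and the groups did not overlap for 36.1%. Stat3, which encodes the STAT of interleukin 6 family signals, had 178.7, 176.3, 169.6 and 173.1 CPM in Sin3a CKO libraries, against 114.5, 107.8, 117.1 and 136.0 CPM in Control libraries, a rise of 0.55 ± 0.08 (edgeR adjusted p = 0.000672). Its knockout libraries were close together, and all lay above the highest control.

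Stat5a and Stat5b, which encode STATs of cytokine and growth hormone signals, fell by 1.62 ± 0.26 and 0.70 ± 0.10 (edgeR adjusted p = 0.00110 and 0.000692). Stat5a had 7.35, 6.57, 5.402 and 2.79 CPM in Sin3a CKO libraries, against 16.4, 16.3, 16.4 and 19.1 CPM in Control libraries. Stat6, which encodes the STAT of interleukin 4 and 13, fell by 1.02 ± 0.12, with 36.2 to 53.8 CPM in Sin3a CKO and 87.6 to 106.2 CPM in Control libraries. Stat4, which encodes the STAT of interleukin 12, was at 0.67 ± 0.47 CPM in Sin3a CKO and 3.08 ± 0.32 CPM in Control libraries (SD, n = 4 each), a fall of 2.20 ± 0.42 on the log2 scale. The median over the 5 genes was -1.02, beside 0.04 over all tested genes. Stat4 shares 1033 of 3872 exon bases with the transcript Gm28177 on the same strand, so part of its count is uncertain.

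**Figure D3:**
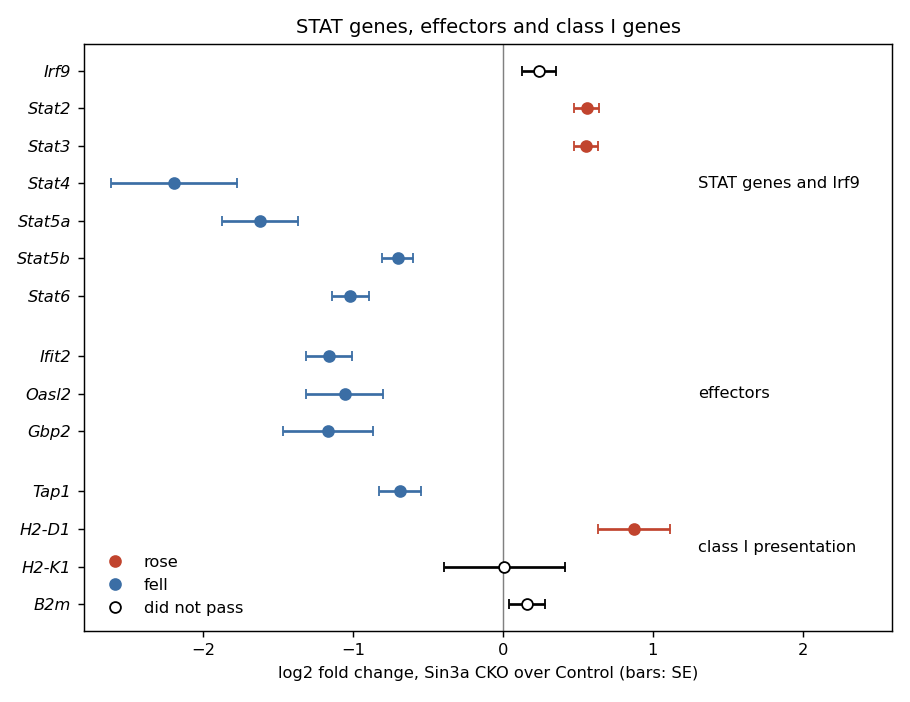
Log2 fold change of 6 STAT genes and Irf9, the 3 effectors and the 4 class I genes, Sin3a CKO over Control, with bars of 1 SE; filled points were called and open points did not pass. Stat2, Stat3 and H2-D1 lie right of 0, while Stat4, Stat5a, Stat5b, Stat6, Ifit2, Oasl2, Gbp2 and Tap1 lie left of it.

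Among 7 other interferon regulatory factor genes 1 rose, 2 fell and 4 did not pass, beside 33.4% of all tested genes called in either direction. Irf1, which encodes an activator of class I and GTPase genes, had 9.04, 6.87, 12.6 and 10.2 CPM in Sin3a CKO libraries, against 19.7, 23.4, 19.9 and 57.0 CPM in Control libraries. Control 4 was far above the other controls. Irf1 was at -1.63 ± 0.37 (edgeR adjusted p = 0.00914), or -1.08 with a block for identifier prefix, which takes Control 4 out of the comparison (adjusted p = 0.00463, beside 1.92e-06 to 0.0405 across the alternatives), and -1.18 without Control 4. Irf8, best known from myeloid cells, fell by 1.00 ± 0.15, with 14.6 ± 2.53 CPM in Sin3a CKO and 29.1 ± 4.81 CPM in Control libraries (SD, n = 4 each). Irf2, which can repress interferon-induced genes, rose by 0.43 ± 0.10, but did not pass without the filter on low counts (0.32, adjusted p = 0.0911). Irf3 was at -0.10 ± 0.11, Irf5 at -0.40 ± 0.64, Irf7, the factor that amplifies type I interferon production, at 0.48 ± 0.30, and the low Irf4 at -1.601 ± 1.24. Irf5 was called as lower without Control 4 (-0.84, adjusted p = 0.0388), and Irf3 without Sin3a CKO 3 (-0.25, adjusted p = 0.0473).

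Interferon transcripts themselves were near absent. None of the 12 interferon ligand genes listed passed the filter on low counts, and 6 of them had 0 counts in every library, which allows a level of up to 0.0321 CPM each at 3 counts in a library. The highest value was 0.175 CPM for Ifnb1, from 17 counts in Sin3a CKO 2. Summed over all ligands there were 49 counts in Sin3a CKO and 38 counts in Control libraries.

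Of the 10 receptor and Janus kinase genes 2 rose, 2 fell and 6 did not pass, beside 33.4% of all tested genes called in either direction. Ifngr2, a chain of the interferon gamma receptor, rose by 0.37 ± 0.09, and Jak2, a kinase of that receptor, by 0.39 ± 0.12. Without the filter on low counts Ifngr2 was at 0.27 and did not pass (adjusted p = 0.0520). Il10rb, which encodes a chain of the interferon lambda and interleukin 10 receptors, fell by 0.55 ± 0.09, with 22.9 ± 1.602 CPM in Sin3a CKO and 33.5 ± 2.98 CPM in Control libraries (SD, n = 4 each). Ifnar2, a chain of the type I receptor, was at -0.22 ± 0.06 (edgeR adjusted p = 0.0196), and its call ended without Sin3a CKO 2, Control 1 or Control 2 (adjusted p = 0.0695, 0.0884 and 0.0560). The Jak2 call (adjusted p = 0.0253) ended without the filter and without Sin3a CKO 1 or 2 or Control 1, 2 or 3 (adjusted p = 0.0520 to 0.0750). The other type I chain Ifnar1 was at 0.07 ± 0.08, Ifngr1 at 0.15 ± 0.08, Jak1 at 0.24 ± 0.09, Tyk2 at 0.13 ± 0.10, Jak3 at -0.61 ± 0.36 and Ifnlr1 at -0.37 ± 0.95. Jak1 was called as higher under 6 alternatives (lowest adjusted p = 0.00635, with the block for prefix) and Jak3 as lower under 3 (lowest adjusted p = 0.00323, without Control 4). Ifnar1, Ifnlr1 and Irf5, which did not pass, changed sign under at least 1 alternative.

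Of 42 other interferon-stimulated effectors tested from a list of 48, 9 fell, 1 rose and 32 did not pass, with a median log2 fold change of -0.21. Over all tested genes 33.4% were called in either direction and 16.1% as lower. In both groups 15 of the 42 averaged below 1 CPM. Cmpk2, a mitochondrial nucleotide kinase induced with the antiviral gene Rsad2, had 1.43, 1.58, 0.90 and 0.72 CPM in Sin3a CKO libraries, against 4.49, 4.55, 4.51 and 4.72 CPM in Control libraries. Its change was -1.98 ± 0.26 (edgeR adjusted p = 0.000428). Rsad2 itself was at 1.93 ± 1.11 and did not pass (edgeR adjusted p = 0.228), with means of 1.09 CPM in Sin3a CKO and 0.285 CPM in Control libraries. Helz2, a helicase coactivator, fell by 1.94 ± 0.32, and Parp12, an antiviral ADP-ribosyltransferase, by 1.16 ± 0.19. The single rise, Isg20, an RNA exonuclease, was at 1.87 ± 0.60 (adjusted p = 0.0375), with 0.556 to 2.58 CPM in Sin3a CKO and 0.192 to 0.955 CPM in Control libraries, so the groups overlapped. That call ended under 10 alternatives, with a log2 fold change of 0.99 under a block for identifier prefix (adjusted p = 0.0560). Without Control 4, 13 of the 42 fell and the Isg20 call was among those lost (adjusted p = 0.0934), with a list median of -0.55. Under the block for prefix 15 fell, and so did all 10 endothelial markers, with a median of -1.10, beside -0.55 for the effectors. The part of endothelial cells in these falls was not tested.

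Of 13 other interferon-inducible GTPases 2 fell and 11 did not pass, with a median of -0.88. In both groups 5 of the 13 averaged below 1 CPM. Among all tested genes 16.1% were called lower. Gbp10, a low guanylate-binding protein gene with close copies, was at 0.11 ± 0.04 CPM in Sin3a CKO and 0.585 ± 0.385 CPM in Control libraries (SD, n = 4 each), a log2 fold change of -2.39 ± 0.57 (edgeR adjusted p = 0.00964). Irgm2, an immunity-related GTPase, was at -1.198 ± 0.40 (adjusted p = 0.0419), and its call ended under 7 alternatives (adjusted p of 0.0512 to 0.157), leaving out any Control or Sin3a CKO 2 among them. With DESeq2 6 of the 13 fell, while 5 fell without Control 4 or with the leukocyte covariate, and 1 fell without Control 1, Control 2 or Control 3.

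Of 19 tested sensors of nucleic acid and their adaptors 7 fell, 1 rose and 11 did not pass, with a median of -0.52. The share called over all tested genes was 33.4%, with 16.1% called lower. Mb21d1, which encodes the cytosolic DNA sensor cGAS, had 3.96, 2.92, 3.95 and 3.19 CPM in Sin3a CKO libraries, against 9.46, 8.95, 10.8 and 8.31 CPM in Control libraries. It fell by 1.42 ± 0.16 (edgeR adjusted p = 0.000170). Tmem173, which encodes STING, the adaptor downstream of cGAS, fell by 1.00 ± 0.13, with 9.37 to 12.8 CPM in Sin3a CKO and 19.0 to 24.6 CPM in Control libraries. Trex1, a DNA exonuclease that limits this pathway, fell by 1.26 ± 0.20. Samhd1, which degrades deoxynucleotides and restricts viruses, rose by 0.55 ± 0.09.

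Of 28 class I antigen presentation genes tested besides the members, 2 rose, 4 fell and 22 did not pass. That is a smaller share of calls than the 33.4% over all tested genes. The median was -0.11, and 5 of the 28 averaged below 1 CPM in both groups. Psme2, which encodes a subunit of the interferon-inducible proteasome activator PA28, had 134.7, 157.4, 180.7 and 135.3 CPM in Sin3a CKO libraries, against 79.6, 78.2, 82.8 and 77.1 CPM in Control libraries, a rise of 0.94 ± 0.10 (edgeR adjusted p = 0.000130). Tapbp, which encodes tapasin, the bridge between the peptide transporter and class I molecules, rose by 0.58 ± 0.09. Tap2, the partner of Tap1 in the transporter, fell by 0.76 ± 0.19, with 4.38 to 7.52 CPM in Sin3a CKO and 8.54 to 11.8 CPM in Control libraries. Cd1d1, which encodes a class I-like molecule that presents lipids, fell by 1.09 ± 0.10 (adjusted p = 7.03e-05). Rfxank, a factor at class I and II promoters, was at -0.41 ± 0.12, and its call ended without Sin3a CKO 2 or Control 1 and under a block for prefix (adjusted p = 0.0589, 0.0587 and 0.0991).

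Class II genes, which mark professional antigen-presenting cells, were mostly low, with 6 of the 10 tested averaging below 1 CPM in both groups. The highest of this list, Ctss, averaged 23.9 CPM in Sin3a CKO and 21.5 CPM in Control libraries. Of 10 tested genes 0 were called by edgeR, DESeq2 or limma-voom, beside 33.4% of all tested genes called by edgeR. None had an unadjusted p under 0.05 in edgeR, while 1 fell under a block for prefix. Cd74, the invariant chain, had 0.243 CPM in Control 4, the library with the lowest leukocyte sum, and was at 6.40 ± 2.83 CPM in Sin3a CKO and 5.90 ± 4.82 CPM in Control libraries (SD, n = 4 each). The leukocyte markers likewise had 0 of 15 calls and 0 with an unadjusted p under 0.05 by edgeR, though 2 fell without Control 4. With the leukocyte marker sum as a covariate Stat2 was at 0.58, Ifit2 at -1.14, Oasl2 at -1.13, Gbp2 at -1.19 and Tap1 at -0.73, each still called. That sum was 29.6 CPM in Control 4 and 344.2 to 760.3 CPM in the other libraries, so the covariate mainly sets Control 4 apart. Such a fit cannot separate leukocyte content from other differences of Control 4, and the part of leukocytes was not tested.

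Negative regulators of JAK-STAT signalling were called in both directions. Beside 33.4% of all tested genes called in either direction, 5 of the 17 tested here rose, 2 fell and 10 did not pass, with a median of -0.10. With upper-quartile scaling 4 rose and 5 fell, and with DESeq2 5 rose and 5 fell. Ptpn1, a phosphatase that acts on Janus kinases, rose by 0.72 ± 0.08 (edgeR adjusted p = 0.000141), Socs7 by 0.88 ± 0.11 and Pias4, a SUMO ligase of the STAT inhibitor family, by 0.59 ± 0.09. Cish, a feedback inhibitor induced by STAT5, fell by 0.76 ± 0.17, and Socs2, another such target, by 0.43 ± 0.08.

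**Figure D4:**
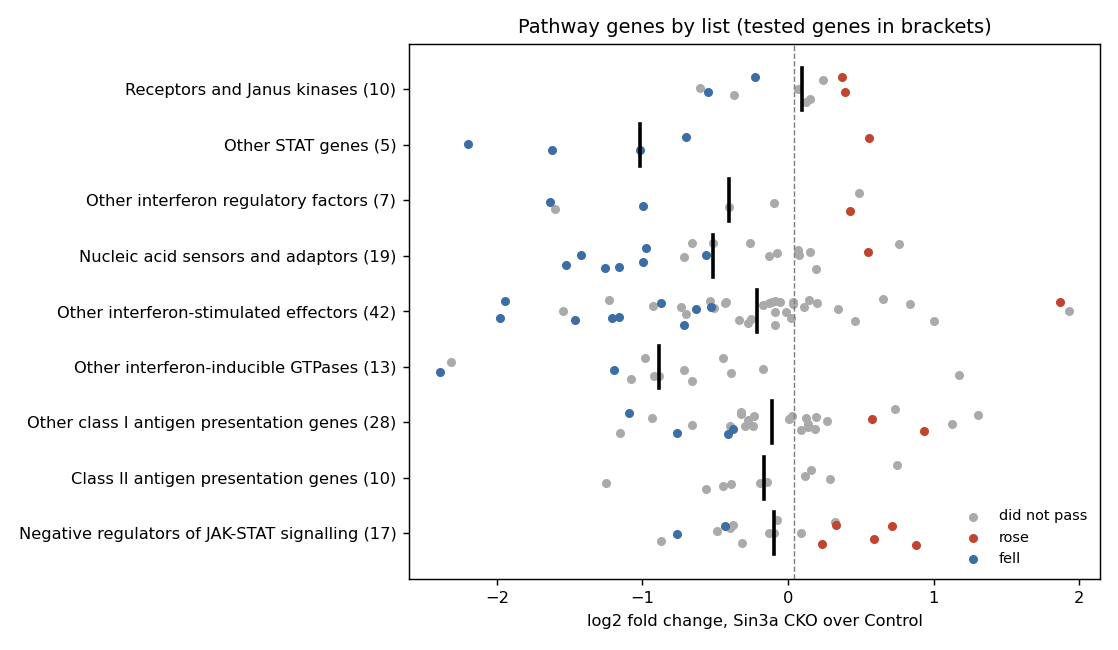
Log2 fold change, Sin3a CKO over Control, of each tested gene of 9 pathway lists, with calls in red (rose) and blue (fell), genes that did not pass in grey, the list median as a black bar and the median of all tested genes (0.04) as a dashed line. The 5 other STAT genes split into 1 higher and 4 lower, while most of the 42 effectors did not pass.

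The genes whose pattern over the 8 libraries was most like each member were named by the highest Pearson correlation of log2 CPM, among tested genes with a mean of at least 5 CPM. This measure includes the difference between groups and picks the best of many genes, so it describes and carries no p. Stat2 was followed most closely by Ddx10, an RNA helicase gene (r = 0.998), and Nudt4 (0.997), Ifit2 by Steap2, a metalloreductase gene (0.995), and Supt7l, which encodes a subunit of a histone acetyltransferase complex (0.993). The Tap1 pattern was nearest to P2rx4 (0.986) and the receptor gene Il10rb (0.984), that of Gbp2 to Plac9a (0.984) and Cd34 (0.978), and that of Oasl2 to Tefm (0.968) and Gpr137b (0.952). For Irf9 the nearest genes were Med18 (0.978) and Alcam (0.972), for H2-D1 Taf1d (0.937) and Asxl3 (0.936), for H2-K1 Gmfg (0.961) and Jmjd7 (0.949), and for B2m Hypk (0.948) and Jtb (0.946).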

How the data were processed

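Expected counts from RSEM for 51912 genes in 8 library columns are what the authors deposited, and 100% of the values are whole numbers. No value column went unused. Per the submitters' processing notes, the build was mm10 and the tools included STAR 2.5.3a, RSEM 1.3.0 and edgeR, with no roles stated. TRIzol RNA and SMARTer v4 with Nextera XT libraries are named per the labels' protocols; these carry no molecular identifiers, so counts include PCR copies. The sources used here name neither annotation nor strand setting. Columns were matched to samples by the identifiers in the labels.

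Counts were analysed with edgeR 4.0.16 (R 4.3.3): filterByExpr with a minimum count of 10 kept 20315 genes, TMM scaled the libraries, and the 2-sided quasi-likelihood test with robust dispersions had group as its only term, adjusted by Benjamini-Hochberg over all tested genes with a threshold of 0.05. The SE is the absolute log2 fold change over the square root of the F statistic. The test was checked on simulated data. Coordinates and exon lengths come from GENCODE M21 (GRCm38), promoters from RefSeq, transcript identities from BLAST 2.17.0 and likeness used log2(CPM + 0.5). Alternatives were upper-quartile or RLE scaling, omission of the filter, DESeq2 1.42.0, limma-voom (limma 3.58.1), blocks for replicate number and identifier prefix, each library left out, and, chosen after seeing the data, a leukocyte marker covariate.

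Members and lists were chosen with earlier results of these data known. Named genes are the members, Sin3a, all tested receptor, kinase, STAT and regulatory factor genes, the called genes with the 3 smallest p per direction in other lists, and the 2 most alike genes per member; some genes of these lists are not reported here. Cd74, Ctss, Col1a1, Col3a1, Pdgfra, Tbx4 and Rsad2 were named outside that rule, after values were seen. Xist was at 117.1 to 183.9 CPM in 2 libraries of each group and at most 0.185 CPM in the others, so both sexes were present in each group, and sex was not a term.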

Additional observations from a re-analysis of the deposited data

Results flagged for a closer look

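Each value here lies apart from the other 3 libraries of its group, by Dixon's test at its 95% critical value, which chance passes in about 1 of 20 groups. Both groups were searched for each member, Sin3a, each pathway gene named by the rule and each marker sum. Several of these flags are therefore expected by chance. Among members, H2-D1 was at 35.5 CPM in Control 4, the lowest control, and B2m at 184.5 CPM in Sin3a CKO 3, the highest knockout. Among STAT genes, Stat5a was at 19.1 CPM in Control 4, the highest control. Irf1 was at 57.0 CPM in Control 4, Irf5 at 6.43 CPM in Sin3a CKO 4, Ifnar2 at 46.3 CPM in Sin3a CKO 2, and Isg20 at 0.955 CPM in Control 3. Marker sums of other cell types were highest among controls in Control 3, at 461.5 CPM for epithelium, 883.8 CPM for erythroid cells and 69.1 CPM for mesothelium. Their part in the results was not tested.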

How the results depend on the processing

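Over 16 alternatives the calls of Stat2 (log2 fold change 0.45 to 0.63), Ifit2 (-1.30 to -1.10), Oasl2 (-1.24 to -0.90), Gbp2 (-1.64 to -0.96) and Tap1 (-0.82 to -0.63) were kept, so 4 members fell under each. Members called higher numbered 2, but 1 without a filter and 1 with a replicate block, where H2-D1 did not pass (0.84, adjusted p = 0.0869), and 1 to 2 when a library was left out. Deviations of same-numbered libraries from their group means correlated at -0.10, -0.02, 0.16 and 0.18 for numbers 1 to 4, so the numbers were not taken as pairs. The replicate block gave 6782 calls against 6792, and not every library correlated best with its own number. Directions reversed for H2-K1 and B2m, which never passed. Irf9 also never passed, but kept its direction under each alternative (0.13 to 0.28). H2-K1 was at -0.0279 with RLE scaling, -0.12 with upper-quartile scaling, -0.10 without a filter, -0.0279 with DESeq2, -0.39 with the prefix block and -0.0765 with the leukocyte covariate, and from -0.35 to 0.20 with a library left out. B2m ranged from -0.00647 (without Sin3a CKO 3) to 0.208 with a library left out. The cause was not tested. Of 32 other named calls 25 held throughout. Depth limits the low genes most: Gbp2 and Oasl2 rest on 58 to 368 counts per library.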
